A study of Mus musculus with 14 samples.

Results

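The genes described are the 8 listed effectors of the Hippo pathway: the TEAD transcription factors Tead1, Tead2, Tead3 and Tead4, the coactivators Yap1 and Wwtr1 (the gene for TAZ), and the cofactors Vgll3 and Vgll4. They were taken by name, 8 of the 21938 protein-coding genes on the chromosomes of the GENCODE M21 annotation (mm10). No measured value served as a rule for the choice, although earlier results of these data were known when it was made. The data are a set of 160144 H3K4me1 sites, broad peaks called by ChIP-seq, of which 160108 lie on the assembled chromosomes and 284 overlap these genes or the 50 kb to either side. The set was drawn over 12 H3K4me1 libraries of 6 conditions, with 2 libraries each, and 2 inputs (control and 16 h). The conditions were a control without degrader and treatment with dTAG for 0.5, 2, 4, 8 and 16 h.

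All libraries came from NG3, a single clone of immortalized mouse embryo fibroblasts. Its cells carry a recombined endogenous Ash2l gene that lacks exon 4 and express human ASH2L fused to the FKBP degron and HA tags (FKBP-HA2-ASH2L), delivered by lentivirus. dTAG links the degron to an E3 ligase, so that ASH2L, a core subunit of the H3K4 methyltransferase complexes, is degraded. The control carries the deletion and the fusion too, and the label WT therefore marks untreated NG3 cells and not wild-type cells. For each site the deposited set holds its bounds and nothing measured in a single library. It therefore shows where H3K4me1 was called in at least some of these libraries, and gives no depth, no replicate error and no change with time. Every number below is a description of the pooled set, and intervals cover the counting of sites only and treat neighbouring sites as independent.

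Mono-methylated H3K4 (H3K4me1) marks enhancers and the shoulders of active promoters, where the nucleosomes nearest to the transcription start site (TSS) carry H3K4me3 instead or are absent. In the Hippo pathway the kinases MST and LATS phosphorylate YAP and TAZ and keep them in the cytoplasm. Unphosphorylated YAP and TAZ enter the nucleus, where they have no DNA-binding domain of their own and bind through TEAD factors to the sequence CATTCC, often at distal enhancers that also hold AP-1 sites. VGLL proteins bind the same TEAD surface, and VGLL4 competes with YAP there. Fibroblasts grown on plastic are a classic setting of YAP and TAZ activity.

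The sequence before the first TSS is shown for 4 genes that hold the TEAD word there. CATTCC was searched on both strands (GGAATG on the other) in the 250 bases before the most upstream annotated TSS. Of the 7 members searched it was present at 4, Tead3, Yap1, Wwtr1 and Vgll3, and absent at Tead2, Tead4 and Vgll4. The word was found in the same window of 11.5% of all 21938 protein-coding genes and of 9.15% of the 9740 with a CpG-rich promoter. Its positions were -170 (Tead3), -141 (Yap1), -136 (Wwtr1) and -131 (Vgll3), counted from the most upstream TSS to the first base of the word. Whether they lie closer together than in other genes with the word was not tested. With 500 or 1000 bases no further member was added, and the count stayed at 4 of 7 while the share of all genes went to 23.2% and 42.2%. Of the list of upstream Hippo genes 7 of 26 held the word within 250 bases, and of the YAP and TAZ target signature 7 of 22. The AP-1 word TGANTCA was in this window of 0 of the 7 members, against 6.05% of all genes. The promoters were searched for these words after other values of the members had been seen, and a word is no evidence of binding. The sequences are from the RefSeq copy of GRCm38.p6 (mm10), 5′ to 3′ on the strand of the gene, with the word in capitals. They span chr17:28350818-28351067 (minus strand) for Tead3, chr9:8004597-8004846 (minus) for Yap1, chr3:57575911-57576160 (minus) for Wwtr1 and chr16:65815007-65815256 (plus) for Vgll3. The most upstream bases of the Yap1 window overlap an exon of Gm45494, a noncoding transcript that runs the other way from the same promoter.
Tead3: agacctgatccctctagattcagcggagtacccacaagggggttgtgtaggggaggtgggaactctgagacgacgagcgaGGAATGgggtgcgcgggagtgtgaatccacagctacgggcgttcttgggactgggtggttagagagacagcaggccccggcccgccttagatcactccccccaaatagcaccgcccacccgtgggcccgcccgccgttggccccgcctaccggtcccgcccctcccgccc
Yap1: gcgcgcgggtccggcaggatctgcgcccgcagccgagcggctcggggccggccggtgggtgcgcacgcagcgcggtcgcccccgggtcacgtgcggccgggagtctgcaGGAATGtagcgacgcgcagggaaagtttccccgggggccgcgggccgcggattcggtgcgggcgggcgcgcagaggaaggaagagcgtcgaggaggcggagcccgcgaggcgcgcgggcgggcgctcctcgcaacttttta
Wwtr1: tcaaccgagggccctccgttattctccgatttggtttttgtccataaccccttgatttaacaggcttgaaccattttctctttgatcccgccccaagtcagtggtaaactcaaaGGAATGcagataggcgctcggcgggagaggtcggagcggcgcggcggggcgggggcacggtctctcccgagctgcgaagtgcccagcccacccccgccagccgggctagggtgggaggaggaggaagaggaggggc
Vgll3: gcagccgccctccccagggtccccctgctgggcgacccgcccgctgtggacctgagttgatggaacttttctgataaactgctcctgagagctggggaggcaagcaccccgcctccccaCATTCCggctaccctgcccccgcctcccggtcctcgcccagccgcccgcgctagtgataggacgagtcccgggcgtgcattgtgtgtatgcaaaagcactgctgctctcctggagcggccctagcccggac

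The word lay inside an H3K4me1 site at Tead3 and Yap1 and outside any site at Wwtr1 and Vgll3. At Wwtr1 the upstream site covered 103 of the 250 bases and ended before the word, which then fell in the site-free stretch around the TSS. At Vgll3 only the 41 bases next to the TSS were covered.

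Every member had an H3K4me1 site within 1 kb of its first TSS (8 of 8), where 63.9% of all protein-coding genes and 95.1% of those with a CpG-rich promoter had such a site. Of the members 7 were CpG-rich (in the 1 kb around the TSS, at least 50% GC and a CpG ratio, the CpGs seen per CpG expected, over 0.6), against 44.4% of all genes. The exception was Tead2, with a CpG ratio of 0.587. A site lay across the first TSS at 5 of 8 members (39.5% of all genes, 56.4% of CpG-rich ones). At the other 3 the TSS was free and a site stood on each side within 1 kb (13.7% of all genes, 27.2% of CpG-rich ones). The paper reports that H3K4me1 gains after ASH2L loss lay almost only at promoters. Whether a promoter site here was called in the control, in treated libraries or in both cannot be told from the pooled set. The layouts are therefore not those of untreated cells alone.

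The 3 genes with the flanked layout were Tead1, Wwtr1 and Vgll4, and their gaps were alike in size. At Tead1 the TSS lay in a gap of 290 bp between a site from -866 to -124 and another from 167 to 991. At Wwtr1, which encodes TAZ, the gap was 297 bp, with an upstream site from -1333 to -148 and a downstream site of 4525 bp, the widest of that gene, from 150 to 4674. At Vgll4, the TEAD cofactor that opposes YAP, the gap was 248 bp, between -108 and 141. All 3 gaps were narrower than the lower quartile of 339 bp among the 3009 protein-coding genes with this layout, whose median was 423 bp. The coactivator paralogs thus differed in layout, since the first TSS of Yap1 lay inside a site from -891 to 1844.

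Among the 5 covered promoters the reach of the site varied widely. The site at Vgll3 began 41 bp before the TSS and ended at 1310. The Tead2 site ran from -278 to 1641 and was the only site that touched that gene. At Tead4 a site of 6324 bp ran from -1330 to 4993. At Tead3 it ran from -1034 to 12352, and with 13387 bp it was the widest site at any of the 8 genes and wider than those of 99.7% of the 15296 protein-coding genes with at least 5 kb of intron.

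**Figure D1:**
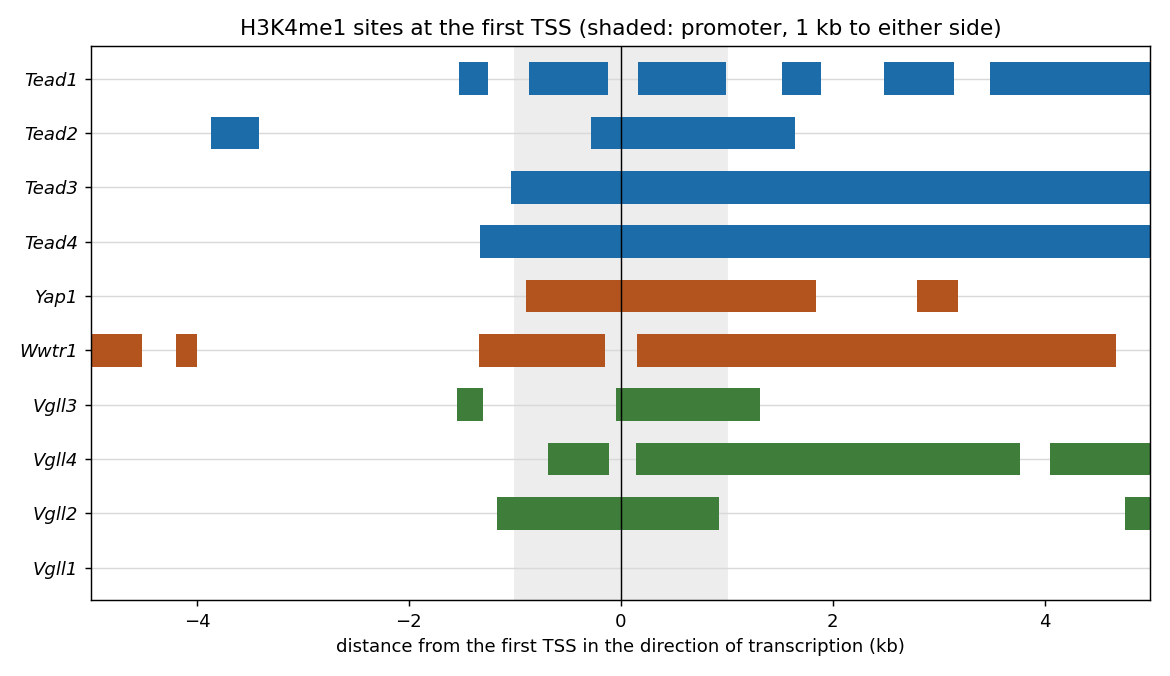
H3K4me1 sites (bars) within 5 kb of the first TSS of the 8 genes and of Vgll1 and Vgll2; the x axis is distance from the TSS in kb in the direction of transcription and the shaded band is the promoter. Tead1, Wwtr1 and Vgll4 show a narrow gap at the TSS, the other 5 members and Vgll2 have a site across it, and Vgll1 has no site.

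The 8 genes have 61 distinct annotated TSSs, of which 40 were covered, 11 were free between sites on both sides, 1 had an upstream site only and 9 had no site within 1 kb. All 7 TSSs of Yap1 and all 4 of Tead4 were covered. At Tead2 the 10 TSSs within 1565 bp of the first were covered, 1 had an upstream site, and the 5 from 4155 bp on had none. At Tead3 the 6 TSSs near the start were covered and the 3 that lie from 14301 bp on had none.

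The flanked layout also appeared at internal TSSs of Tead1 and Vgll4, outside CpG-rich sequence. At Vgll4 the TSS 48173 bp into the gene lay in a gap of 600 bp with a CpG ratio of 0.389. Another Vgll4 TSS, 105237 bp into the gene, lay in a wider gap of 1211 bp with a CpG ratio of 0.217. At Tead1 the annotated TSS 80066 bp into the gene lay in a gap of 443 bp with a CpG ratio of 0.386. That position is, however, the first base after intron 1 of the longest protein-coding Tead1 transcript, which ends at 112759383, and the sequence before it ends in the AG of a splice acceptor (in capitals). Whether transcription starts there or the annotated transcripts are 5′ ends of the spliced exon was not tested. The 250 bases before it, chr7:112759134-112759383 (plus strand), hold 2 CpG dinucleotides and lie in no site.
Tead1 internal: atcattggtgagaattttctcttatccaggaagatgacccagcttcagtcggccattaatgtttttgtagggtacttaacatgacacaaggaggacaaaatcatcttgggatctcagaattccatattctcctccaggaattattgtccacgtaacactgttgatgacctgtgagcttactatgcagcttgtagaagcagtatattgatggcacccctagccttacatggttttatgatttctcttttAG

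The TEAD factor genes differed most. Tead1 (chr7:112679318-112906807) is 227 kb long and held 72 sites, more than 99.5% of genes with at least 5 kb of intron, which had a median of 3. Tead4 (chr6:128224288-128300823) held 13 sites over 76.5 kb. Tead2 (chr7:45215753-45233644) and Tead3 (chr17:28331671-28350817) are short, with 17.9 and 19.1 kb, and each held a single site. Yet sites covered 64.5% of the bases of Tead3 and 9.18% of those of Tead2, beside 48.9% for Tead1 and 27.7% for Tead4. The median over the genes with at least 5 kb of intron was 6.97%.

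The coactivator genes were more alike. Yap1 (chr9:7931999-8004596) held 22 sites over 72.6 kb, with 33.9% of its bases covered, and Wwtr1 (chr3:57455649-57575910) held 33 over 120 kb, with 27.5% covered. Of the cofactor genes, Vgll4 (chr6:114860628-114969994) held 32 sites over 109 kb with 56.2% covered, and Vgll3 (chr16:65815257-65866368) 11 sites over 51.1 kb with 14.4% covered. The family members outside the list held few. Vgll1 had 0 sites over the gene and no promoter site, and Vgll2 had 2 sites and a covered TSS.

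**Figure D2:**
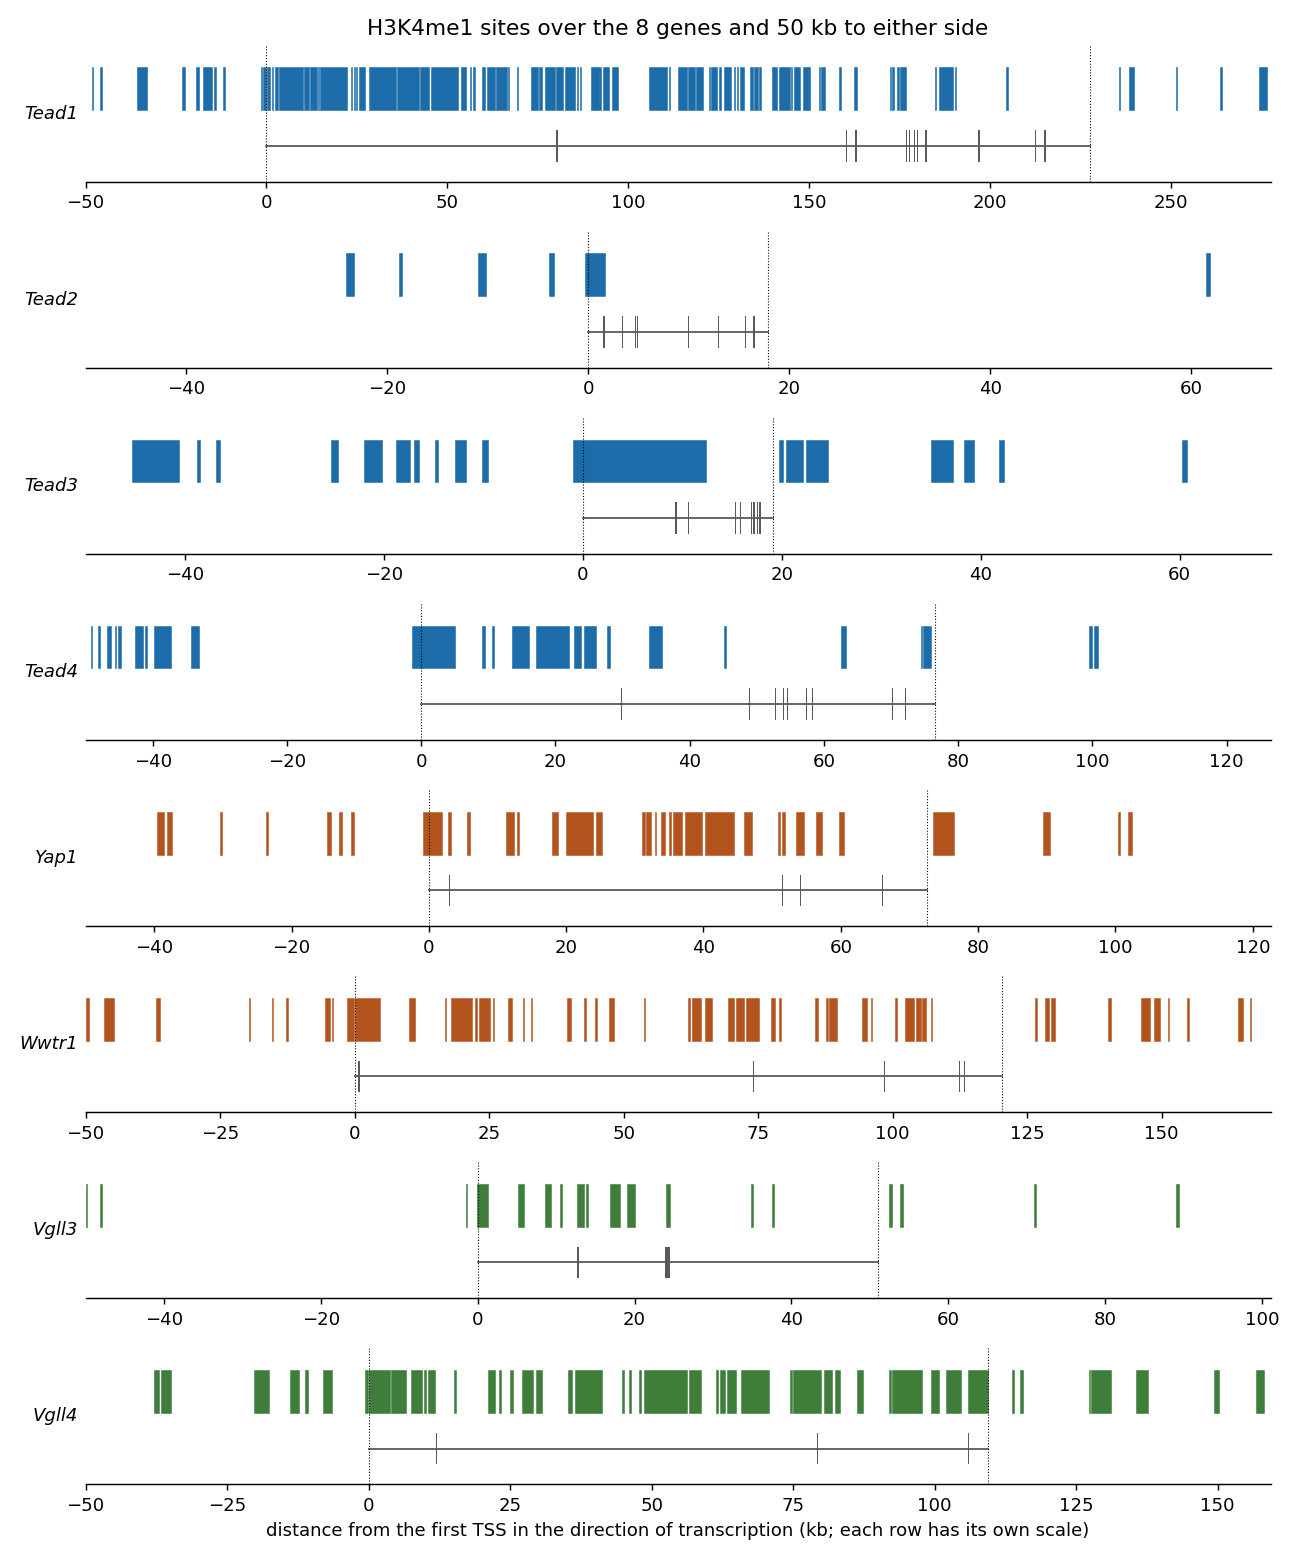
H3K4me1 sites (coloured bars) over each gene and 50 kb to either side; the x axis is distance from the first TSS in kb, each row on its own scale, the grey line is the gene between dotted lines, and ticks are inner exons of its longest protein-coding transcript. Tead1 and Vgll4 carry sites over most of their length, Tead3 a single block over its 5′ part, and Tead2 only the block at its start.

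Sites in the flanks were often nearer to the TSS of another protein-coding gene. Within 50 kb of either end there were 15 such flank sites at Tead1, of which 5 were nearest to another gene (Rassf10). All 17 flank sites of Tead3 were nearest to Fance, Fkbp5, Ppard, Rpl10a or Tulp1, and all 5 of Tead2 to Ccdc155, Dkkl1 or Slc6a21. All 11 of Tead4 were nearest to Tspan9 or Tulp3. At Vgll3, by contrast, all 18 sites of the window were nearest to Vgll3 itself. The comparisons between paralogs below use the genes and not the windows. At Wwtr1, however, 12 of the 33 sites over the gene itself, and 12 of 19 in its flanks, were nearest to another TSS, for the 12 within the gene that of Tm4sf4. At the other 7 genes every site over the gene was nearest to its own TSS.

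Sites centred in introns, bases that lie in no exon of any transcript, were counted per kb. Over the 8 genes there were 173 in 639 kb, or 0.271 per kb (95% Poisson interval 0.232 to 0.314), and 40.2% of intron bases were covered. These pooled values weight long genes more, and the medians over the 8 genes were 0.248 per kb and 31.8% covered. The median protein-coding gene with at least 5 kb of intron had 0.0755 per kb (quartiles 0 and 0.147) and 6.30% covered (quartiles 1.37% and 15.2%). Of the members 6 of 8 lay above the upper quartile in number (all but Tead2 and Tead3) and 6 of 8 in coverage (all but Tead2 and Vgll3). For genes with as much intron and a CpG-rich promoter, which 7 of the 8 members have, the medians were 0.101 per kb and 9.19%.

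By number, Tead1 came first with 69 sites in 213.9 kb, 0.323 per kb (0.251 to 0.408). Vgll4 (0.289, 0.195 to 0.412), Wwtr1 (0.286, 0.197 to 0.401), Yap1 (0.268, 0.156 to 0.430) and Vgll3 (0.227, 0.109 to 0.418) followed, and then Tead4 (0.178, 0.0949 to 0.305). Tead3 had 1 site in 12.4 kb of intron (0.0804, 0.00204 to 0.448) and Tead2 0 in 13.1 kb (0, 0 to 0.282, or 0.229 per kb at a floor of 3 counts). The promoter site of Tead2 is centred on a base that is exonic in part of its transcripts and is not counted there. An intron total of at least 5 kb without a site centred in it was found in 26% of the protein-coding genes with that much intron. Neighbours in this order had overlapping intervals throughout.

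By coverage the order was another. The single site of Tead3 covered 73.5% of its intron bases, a larger share than in 99.3% of protein-coding genes with at least 5 kb of intron. Vgll4 followed with 54.9% and Tead1 with 51.0%, then Yap1 with 35.4%, Tead4 with 28.2%, Wwtr1 with 28.0%, Vgll3 with 13.6% and Tead2 with 0%. Tead3 was thus next to last by number and first by coverage.

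**Figure D3:**
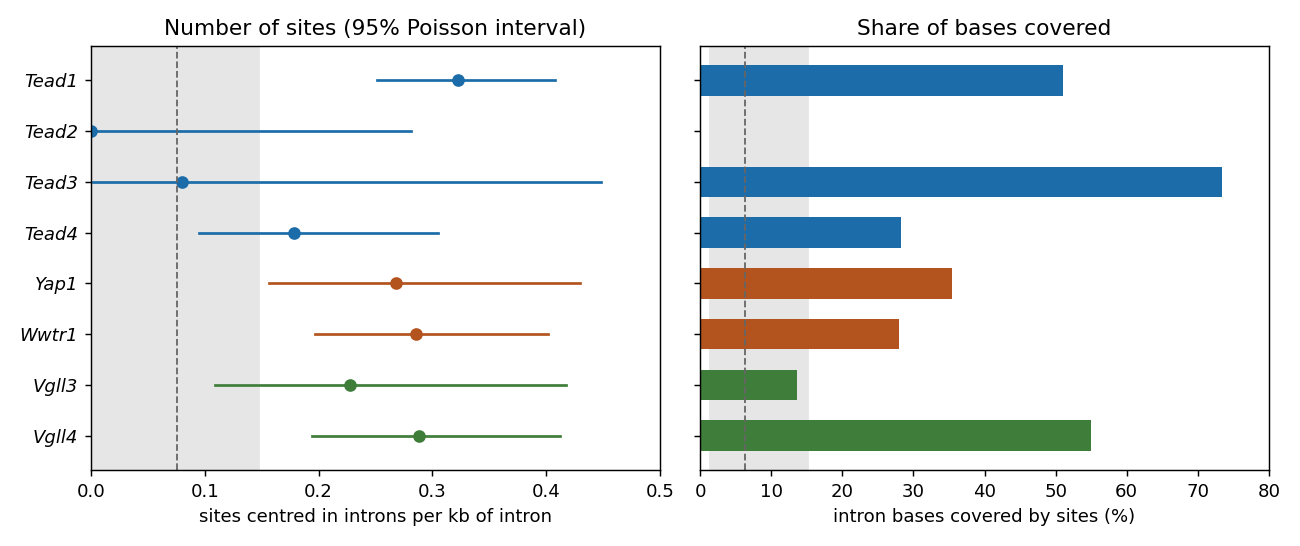
Left, sites centred in introns per kb of intron (points) with the exact 95% Poisson interval (lines); right, percent of intron bases covered. The dashed line and the grey band are the median and quartiles of 15296 protein-coding genes; Tead3 lies near the median in number (0.0804 per kb) and highest of the 8 in coverage (73.5%).

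Of the 8 paralog pairs, the ratio of sites per kb of intron had an exact 95% interval that left out 1 in a single pair. This was Tead1 over Tead2, with a lower limit of 1.12 and a ratio of 1.41 when the 0 sites of Tead2 are set to a floor of 3. Against the same floor Tead4 gave a ratio of 0.779 and Tead3 of 0.351, so that no order against Tead2 was detectable for them. Tead1 over Tead4 was 1.81 (0.992 to 3.57), and 2.12 (1.12 to 4.44), an interval without 1, when introns were taken from the longest protein-coding transcript alone. In such introns the promoter site of Tead2 does count, as 1 site in its first intron of 1.38 kb. The ratio of Tead1 over Tead2 was not computed for them. Tead1 over Tead3, with 1 site in Tead3, was 5.47 there (0.951 to 219), an interval that holds 1. Tead2 likewise had 1 site there, in less intron (1.38 and 14.4 kb in first and later introns, against 9.01 and 7.51 kb). The lower limit for Tead1 over Tead2 would therefore lie lower still. That its interval left out 1 thus rests on whether this Tead2 site is counted. Tead1 over Tead3 was 4.01 (0.696 to 161) and Tead3 over Tead4 0.451 (0.0106 to 3.004). Yap1 over Wwtr1 was 0.939 (0.491 to 1.74) and Vgll4 over Vgll3 1.27 (0.604 to 2.91). These intervals do not show that the paralogs are alike, since the 5 of pairs without Tead2 also hold a ratio of 1.5.

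The ratio of covered shares, for which the data give no interval, went another way in several pairs. It was 0.695 for Tead1 over Tead3 and 2.60 for Tead3 over Tead4, both on the other side of 1 from the ratio of numbers, as was Yap1 over Wwtr1 with 1.27. Vgll4 over Vgll3 was 4.04. Tead1 over Tead4 was 1.81 by either measure.

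Coverage depends on the width of the sites as well as on their number. Whether a wide site was called at that width in any single library cannot be told from the pooled set. The 185 sites over the 8 genes had a median width of 879 bp, against 603 bp over all 160108 sites. The median was 893 bp at Tead1, 1250 bp at Vgll4, 1136 bp at Tead4, 799.5 bp at Yap1, 704 bp at Wwtr1 and 734 bp at Vgll3. A site of at least 5 kb was present at 4 of 8 members (Tead1, Tead3, Tead4 and Vgll4), against 6.24% of protein-coding genes with at least 5 kb of intron. Tead1 held 6 such sites and Vgll4 2. The widest site was 7607 bp at Tead1, 7562 bp at Vgll4, 4525 bp at Wwtr1, 4119 bp at Yap1, 1920 bp at Tead2 and 1352 bp at Vgll3.

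Of the 6 wide Tead1 sites, 5 were centred in intron 1, at 6.76, 18.6, 32.3, 39.1 and 49.2 kb from the TSS, and the last in intron 2 at 108 kb. Joining sites with gaps of at most 1 kb turned the 5′ part of Tead1 into a block of 56548 bp, from -1.52 to 55.0 kb, made of 20 called sites. The same step gave 13314 bp at Yap1 (8 sites, from 31.1 to 44.4 kb), 12505 bp at Vgll4 (6 sites, from -0.686 to 11.8 kb), 9191 bp at Wwtr1, 8875 bp at Tead4 and 3171 bp at Vgll3. At Tead2 and Tead3 nothing was joined. At Wwtr1, Yap1, Tead4 and Vgll3 the joined block lay in the gene and apart from the promoter at the first TSS. The blocks of Yap1 and Tead4 did, however, span an internal annotated TSS, 38775 and 25246 bp from the first.

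**Figure D4:**
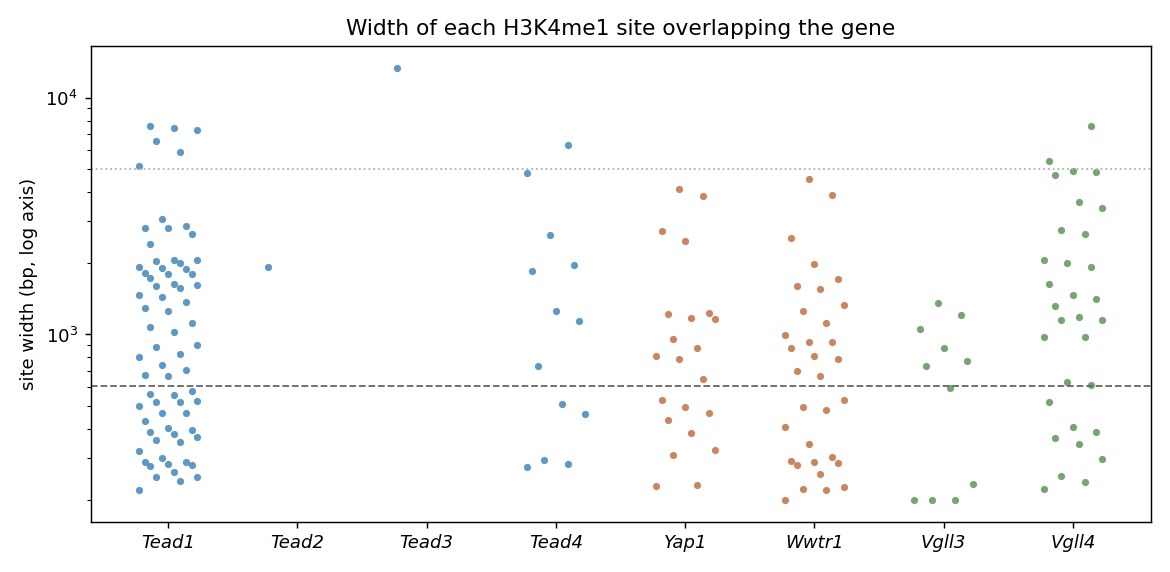
Width in bp (log axis) of every H3K4me1 site that overlaps each gene, 1 point per site, spread sideways for legibility. The dashed line is the median of all sites, 603 bp, and the dotted line 5 kb; the single Tead3 site, 13387 bp wide, stands above all others.

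Along the genes, each divided into 10 equal bins from 5′ to 3′, coverage was higher in the first bin than in the last at all 8, as in 79.7% of the 12790 protein-coding genes with at least 5 kb of intron and a site. In Tead1 the first bin was covered to 85.8% and the last to 0.9%. In Tead4 the first was covered to 65.2%, with 0% in the seventh and the eighth. In Tead3 the first 6 bins were covered whole and the last 3 not at all. At 4 genes the highest value lay past the first bin, at Yap1 (86.6%) and Wwtr1 (48.2%) in the sixth, at Vgll3 (44.3%) in the fourth and at Tead4 (76.9%) in the third. Vgll4 had 69.4% in its last bin beside 81.3% in the first. In 6 of 8 genes the longest site-free stretch ended at the 3′ end of the gene, as it did in 49.7% of the 12790 protein-coding genes with at least 5 kb of intron and a site. It was 22540 bp at Tead1, 16250 bp at Tead2, 13327 bp at Vgll3, 12939 bp at Wwtr1, 12205 bp at Yap1 and 6794 bp at Tead3.

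**Figure D5:**
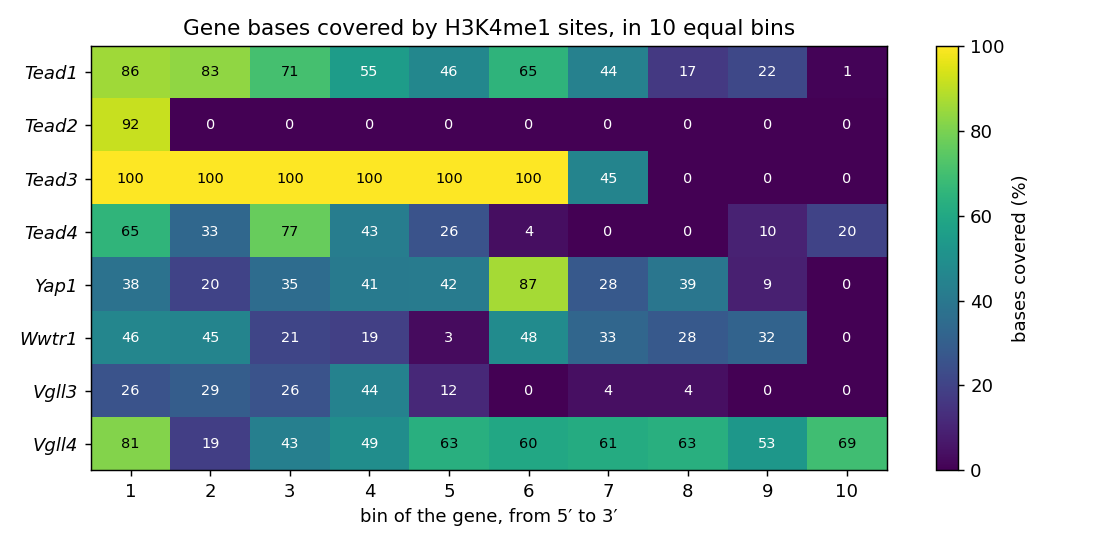
Percent of bases covered by H3K4me1 sites in 10 equal bins of each gene, from 5′ (left) to 3′ (right), for the 8 genes, rounded to whole percent in the cells. Values are high at the left in Tead1, Tead2, Tead3 and Tead4, and Vgll4 keeps 53.1% or more from the fifth bin to the last.

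The first intron was then set against the later ones of the longest protein-coding transcript. Over all 8 genes the first introns held 48 sites in 145.8 kb, 0.329 per kb (0.243 to 0.436), and the later ones 129 in 509.0 kb, 0.253 per kb (0.212 to 0.301), a ratio of 1.30 (0.912 to 1.82). The 6228 protein-coding genes with at least 5 kb in each had medians of 0.137 and 0.0476 per kb. Those are medians per gene. The rates of the members are pooled over all 8, with first introns shorter than 5 kb included, and do not compare with them directly. In 5 members both parts reached 5 kb (Tead1, Tead3, Tead4, Vgll3 and Vgll4), and in all 5 a larger share of the first intron was covered, which was so in 70.9% of those 6228 genes. The shares were 75.5% against 36.7% in Tead1, 55.4% against 7.24% in Tead4, 82.4% against 51.8% in Vgll4, 21.0% against 11.05% in Vgll3 and 100% against 37.5% in Tead3.

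Single introns stood out within the genes. Intron 2 of Tead1, 79.8 kb long, held 32 sites and was covered to 52.4%, beside 29 sites and 75.5% in intron 1 of 79.7 kb. Intron 11 of the same gene, 15.5 kb, held 1 site. In Yap1 intron 3, 11.4 kb, held 7 sites, 0.614 per kb, and was covered to 69.8%. Intron 2 of Wwtr1, 73.0 kb, held 21 of the 33 sites of that gene. Introns 2 and 3 of Vgll4 were covered to 50.7% and 52.9%.

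The words CATTCC (TEAD) and TGANTCA (AP-1) were looked for in the 200 bp at the centre of each site, on both strands. Of the 185 sites over the genes, 24 held the TEAD word, 12.97% (95% Wilson interval 8.88% to 18.6%), against 14.4% of all sites on chromosomes. The AP-1 word was in 17, 9.19% (5.82% to 14.2%), against 12.7%, and both were in 3, 1.62%, against 1.89%. The interval for the TEAD word holds the value of all sites, and so does that for AP-1. By gene the TEAD word was in 5 of 13 sites at Tead4, 7 of 33 at Wwtr1, 6 of 72 at Tead1, 4 of 32 at Vgll4 and 1 each of 22 at Yap1 and 11 at Vgll3. GC content at the centres was alike, with medians of 49.0% and 48.5%.

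The centres of 2 intronic sites that hold both words are shown, since YAP-bound enhancers often hold both. The Tead1 site (chr7:112790442-112790967, 526 bp) lies 111 kb into the gene, and its centre is chr7:112790605-112790804 (plus strand). The Tead4 site (chr6:128284694-128287330, 2637 bp) lies 14.8 kb into the gene, and its centre is chr6:128285912-128286111 (minus strand). Both words are in capitals, and a match of such short words is frequent by chance.
Tead1 site: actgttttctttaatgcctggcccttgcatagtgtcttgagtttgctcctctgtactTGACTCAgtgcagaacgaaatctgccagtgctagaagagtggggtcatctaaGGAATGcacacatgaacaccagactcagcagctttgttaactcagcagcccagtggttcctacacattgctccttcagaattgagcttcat
Tead4 site: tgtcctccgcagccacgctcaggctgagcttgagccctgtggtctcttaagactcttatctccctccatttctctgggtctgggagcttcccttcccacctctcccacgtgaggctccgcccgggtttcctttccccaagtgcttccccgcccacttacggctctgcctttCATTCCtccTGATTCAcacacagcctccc

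Around these effectors, the rest of the pathway was read from 2 lists. Of 26 upstream Hippo genes (kinases, scaffolds and junction proteins) 23 had a promoter site, and 21 were CpG-rich. Such a site was at 63.9% of all protein-coding genes and at 95.1% of CpG-rich ones. The upstream genes had medians of 0.151 sites per kb of intron and 19.1% of intron bases covered. These lay between all genes and the effectors, whose medians were 0.248 and 31.8%. Wwc2 (39 sites), Map4k4 (32) and Stk3 (31) held the most, and Stk3, Lats1 and Amotl1 had no site at the first TSS. Of 22 genes of a YAP and TAZ target signature 21 had a promoter site and 14 were CpG-rich, with medians of 0.224 per kb and 35.6%. Rbms3 (108), Asap1 (91) and Crim1 (54) held the most, and Rbms3 had no site at its first TSS. At Stk3, Amotl1 and Rbms3 other annotated TSSs had a site within 1 kb (3 of 6, 5 of 6 and 8 of 11). A site of at least 5 kb was at 7 of the 26 and 9 of the 22, against 1126 of all 21938 protein-coding genes. The lists share Amotl2, Lats2 and Ptpn14, which count in both.

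As a check of the cells, 8 of 9 fibroblast marker genes had a promoter site (all but Col3a1), and 3 of 9 markers of other lineages (Epcam, Pecam1 and Tubb3), beside 63.9% of all protein-coding genes. A site is a mark at a gene and no level of its RNA.

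The protein-coding genes most like each member were sought over 12790 genes by the distance in gene length, sites per kb of intron, share of the gene covered and widest site, each in SD units. For Tead1 these were Mrtfa (0.325 sites per kb, 51.6% covered, widest 8133 bp) and Samd4. For Tead3 they were Trim8 (67.1% covered, widest 11538 bp) and Slc7a5 (67.9%, 13988 bp). The nearest to Tead2 were Gpn1 and Tprkb, to Tead4 Neurl1a and Sh3pxd2b, to Yap1 Rassf8 and Masp1, to Wwtr1 Mprip and Arhgap35, to Vgll3 Tpx2 and Ptpn2 and to Vgll4 Lrig1 and Stk24. The 2 nearest genes lay outside the family at each member. This says little of how alike the paralogs are, since 12790 genes were compared and each family holds few.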

How the data were processed

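NG3 cells were profiled for H3K4me1 by ChIP-seq. Per the authors, reads passed Trim Galore, BWA alignment (genome mm10) and samtools filters, Picard merged the replicates, and broad peaks came from Macs, which the submitters' processing notes give as MACS2. Versions and thresholds are not given in the sources used here. The deposited values are positions in bases, a start counted from 0 and an end for each site, in a single set over all samples. The depth per library is unknown, and no test between conditions could be made. Coordinates are printed counted from 1.

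The 8 genes, the gene lists and the measures were chosen with earlier results of these data known. Named genes were the members, Vgll1 and Vgll2, the 3 genes of each pathway list with the most sites and those without a promoter site, the genes nearest to flank sites, and the 2 genes most like each member. Genes and TSSs were those of GENCODE M21 (the paper names another release). A promoter was 1 kb to either side of the most upstream TSS, and 1 bp of overlap counted. The promoter sequence of 1 member is not reported here and was left out of the promoter words. Positions and sequence were compared in Python 3.11.15 with numpy 2.4.6 and scipy 1.17.1, and figures were drawn with matplotlib 3.10.9. Functions were tested on simulated sites. Intervals are exact 95% Poisson or conditional binomial intervals and 95% Wilson intervals. The alternatives were joined sites, sites of at least 500 bp, other flanks, TSSs, introns and centre lengths.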

Additional observations from a re-analysis of the deposited data

How the results depend on the processing

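Under 43 alternatives for 12 values, 33 stayed within the counting interval of the value given (for counts and widths, within 1.5 times) and 10 did not. These counts do not measure how robust the values are. A change of unit or of window length moves a value by itself, and a wide interval holds most alternatives. The intervals of the paralog ratios are wide, and in 7 of their 25 alternatives the ratio crossed 1, where the interval of the ratio given holds 1 in each of these pairs. Pairs with Tead2 were not among these alternatives. Beside the values below, Tead1 over Tead3 became 0.988 and Vgll4 over Vgll3 0.741 with joined sites, Yap1 over Wwtr1 1.15 with sites of at least 500 bp and 1.27 by coverage, and Tead3 over Tead4 2.60 by coverage. The promoter count stayed at 8 of 8 in all 4 of its alternatives. Joining sites within 1 kb gave 164 sites in the windows in place of 284, 0.120 sites per kb of intron in place of 0.271, a ratio of Tead1 over Tead4 of 0.580 in place of 1.81 and a median widest site of 10848 bp in place of 5424.5 bp. Counting only sites of at least 500 bp gave 181 sites and 0.181 per kb. Read as coverage, the intron value was 40.2%, which has another unit and could not stay within the interval. Coverage in place of number, an alternative for the paralog ratios chosen after seeing the data, gave 0.695 for Tead1 over Tead3 and 4.04 for Vgll4 over Vgll3. With 400 bp at the centre the share of sites with the TEAD word was 22.7%, against 26.5% of all sites. The count of 4 promoters with the word was also tried with 500 and 1000 bases after seeing the data. Numbers of sites thus depend on how far apart sites must lie to count as separate. No paired analysis was possible because the set holds no value per library, and for the same reason no replicate could be left out.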

Other observations

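Lats1, which encodes a kinase that phosphorylates YAP and TAZ, had 0 H3K4me1 sites over its 35.2 kb and none within 1 kb of its 2 annotated TSSs, although its promoter is CpG-rich and 95.1% of such promoters had a site. Its paralog Lats2, also a gene of the target signature, held 23 sites, with 46.8% of its intron bases covered and a covered TSS. Ajuba, a LIM protein that binds LATS kinases, resembled Tead3 in that a single site, of 11083 bp, covered 94.1% of its 10.1 kb. Amotl2, an angiomotin that binds YAP, held 3 sites, the widest of 14943 bp, which together covered 94.5% of its 16.7 kb. Except for Lats1, these genes were named after their values had been seen.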
